A study of Drosophila melanogaster with 37 samples.

Results

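The antimicrobial peptide genes AttA, AttB, AttC, AttD, CecA1, CecA2, CecB, CecC, Def and Drs are 10 of the 17698 genes in the transcription unit annotation of this study. They were chosen by symbol from the gene names of the annotation and not by any measured value. A transcription unit (TU) is a stranded interval on build dm6 that holds 1 or several genes and over which polymerase signal can be summed. Each of the 10 genes was found once, in 10 of the 15991 TUs.

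The series profiled RNA polymerase II in sexed Drosophila melanogaster embryos of stage 15 by mNET-seq, a method in which polymerase is pulled down with an antibody and the RNA still being made inside it is read. Mothers carried a control RNAi or UAS-mof RNAi against mof, an acetyltransferase gene of X chromosome dosage compensation. The labels used here give neither the target of the control RNAi nor the driver of the transgene. Female and male embryos of both genotypes were profiled for total polymerase (control females 4 samples, knockdown females 4, control males 3, knockdown males 3), for polymerase phosphorylated at serine 5 of its C-terminal domain (3, 4, 4 and 4 samples in the same order) and for polymerase phosphorylated at serine 2 (2 samples each). Each preparation pooled 6000 whole embryos. Sample coverage was not analysed here, so the depth is unknown, and no transcription level of an antimicrobial peptide gene, no effect of the knockdown and no difference between sexes can be given.

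Antimicrobial peptides are short secreted proteins of the humoral immune response. In Drosophila the fat body releases them into the haemolymph after infection, when the Toll and Imd pathways bring NF-kappaB factors to their genes: Dif and Dorsal downstream of Toll, Relish downstream of Imd. Cecropins are linear helical peptides and attacins are glycine-rich proteins, both known mainly for killing Gram-negative bacteria. Defensin, the product of Def, acts on Gram-positive bacteria, and drosomycin, the product of Drs, acts on fungi; both are small proteins held by disulfide bonds.

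The 10 genes lay on 3 autosome arms. Chromosome arm 3R held 5 of them (AttD, CecA1, CecA2, CecB and CecC), 2R held 4 (AttA, AttB, AttC and Def), and 3L held Drs alone. Of all TUs, 23.8% were on 3R, 20.3% on 2R and 19.5% on 3L. On the X, the chromosome that dosage compensation acts on, there were 0 of the 10 genes, where the X held 15.0% of all TUs. On the plus strand there were 8 of 10, against 50% of all TUs, and the 2 genes on the minus strand were CecB and Def.

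By position the genes formed 6 loci, of which 2 were groups of neighbours. A group was a run of the named genes on an arm with at most 10 kb between consecutive ones. The first group was the pair AttA and AttB on 2R, and the second was CecA1, CecA2, CecB and CecC on 3R, so that 6 genes were grouped and 4 stood alone. Grouped genes share an arm, and AttA and AttB, like CecA1 and CecA2, also share a strand. The counts by arm and strand are therefore not counts of 10 independent genes. The same 2 groups were counted at spacings of 5, 20 and 100 kb. At 2 kb CecC left its group, and 5 genes remained grouped. The distances between loci were far larger: Def and AttC were 3339128 bp apart with 506 TUs lying wholly between them, AttC and AttA 1352694 bp with 185 TUs, and AttD and CecA1 12584787 bp with 1680 TUs.

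**Figure D1:**
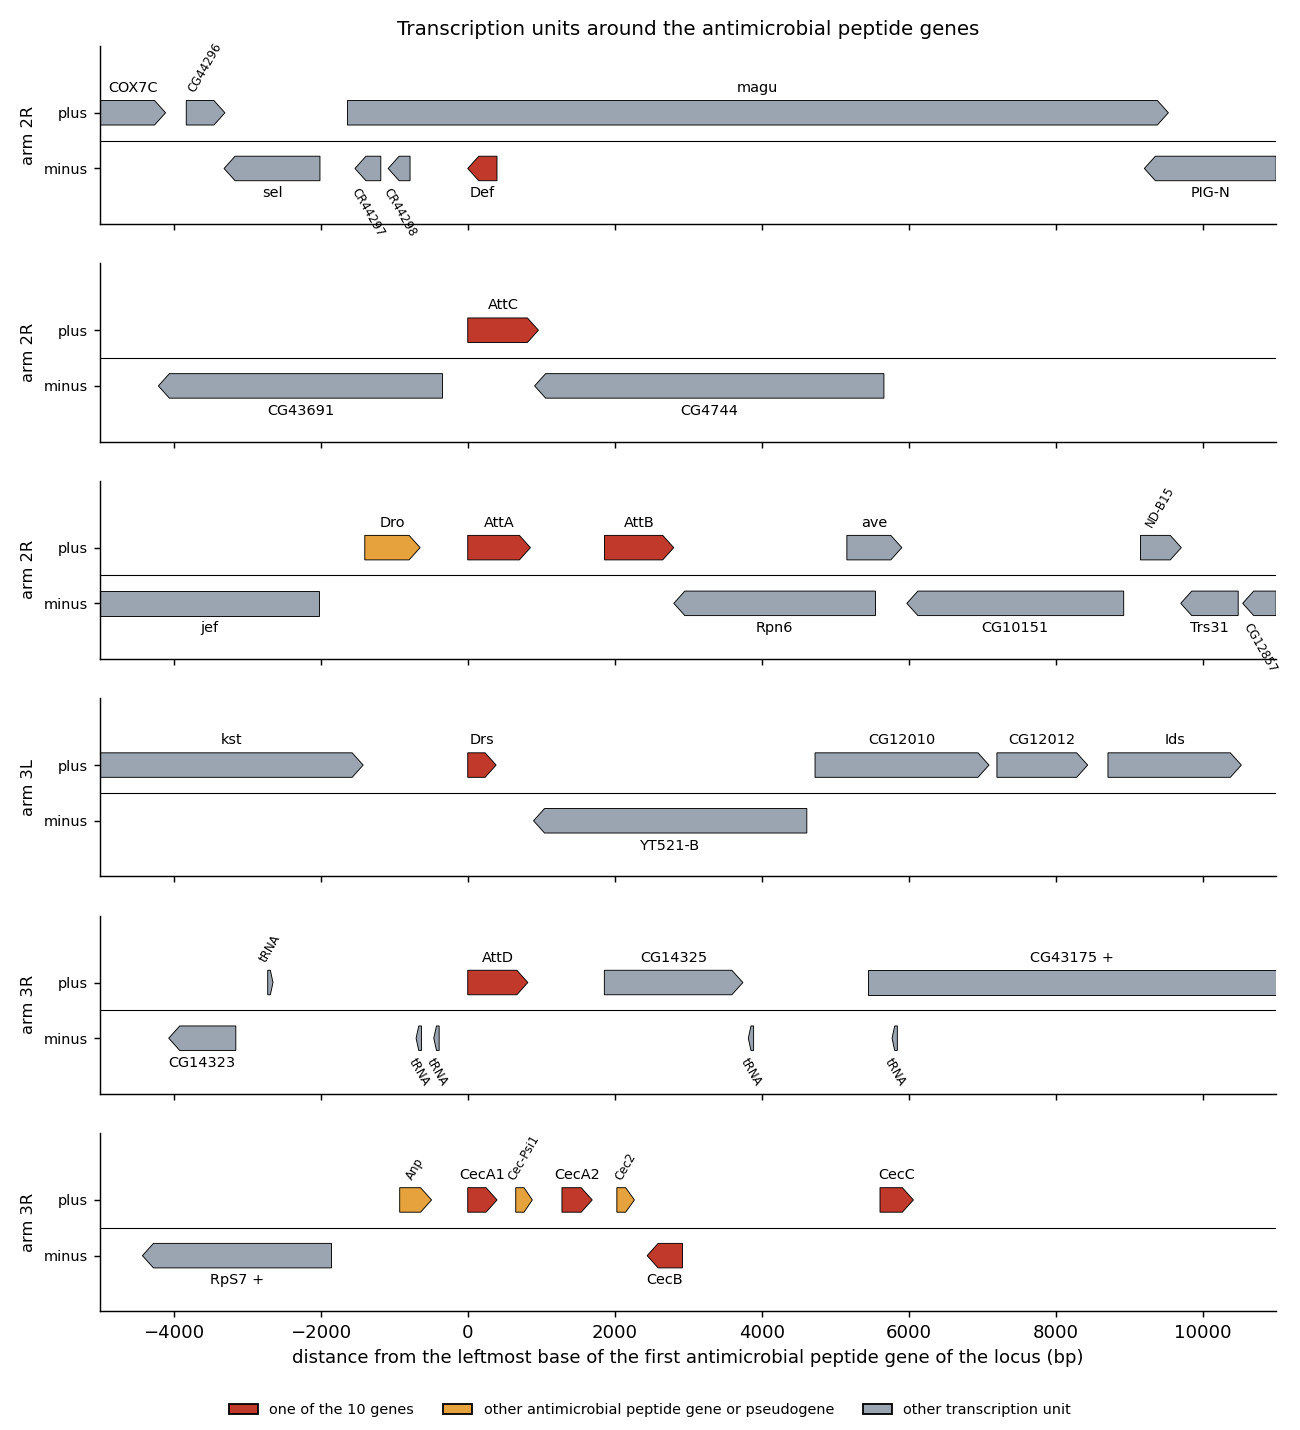
Map of the 6 loci, with the distance in bp from the leftmost base of the first of the 10 genes on the horizontal axis and the plus and minus strands above and below the line. Red arrows are the 10 genes, orange arrows other antimicrobial peptide genes or pseudogenes, and grey arrows other TUs. Arrows point in the direction of transcription and are cut without a tip at the panel edge. A plus sign after a name marks a TU of several genes. The cecropin locus is the most crowded with immune genes, and Def lies inside magu on the opposite strand.

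All 10 genes were short. Drs was the shortest at 387 bp, followed by Def at 399 bp, CecA1 at 400 bp, CecA2 at 413 bp, CecC at 455 bp and CecB at 483 bp. The attacins were the longer members, with AttD at 819 bp, AttA at 854 bp, AttB at 943 bp and AttC at 963 bp. The lengths fell into a lower set of peptides (cecropins, defensin and drosomycin) and a higher set of attacins, and these sets did not overlap. The median was 434 bp over the 4 cecropins and 898.5 bp over the 4 attacins.

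Together the 10 TUs covered 6116 bp. Their median length was 469 bp, against 1817 bp over all TUs (interquartile range 896 to 4233.5 bp, n = 15991) and 2240 bp over the 13045 TUs with a protein-coding gene. Under 1000 bp were 10 of 10 genes, where 28.4% of all TUs and 18.4% of the protein-coding ones were under that length. Shorter than the members' median were 8.64% of all TUs. Even AttC, the longest, was longer than only 27.3% of all TUs and 17.3% of the protein-coding ones. Drs was longer than 5.96% and 0.943%. A gene of this size offers few positions for polymerase, so any profile along the gene would rest on less than 1000 bp.

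**Figure D2:**
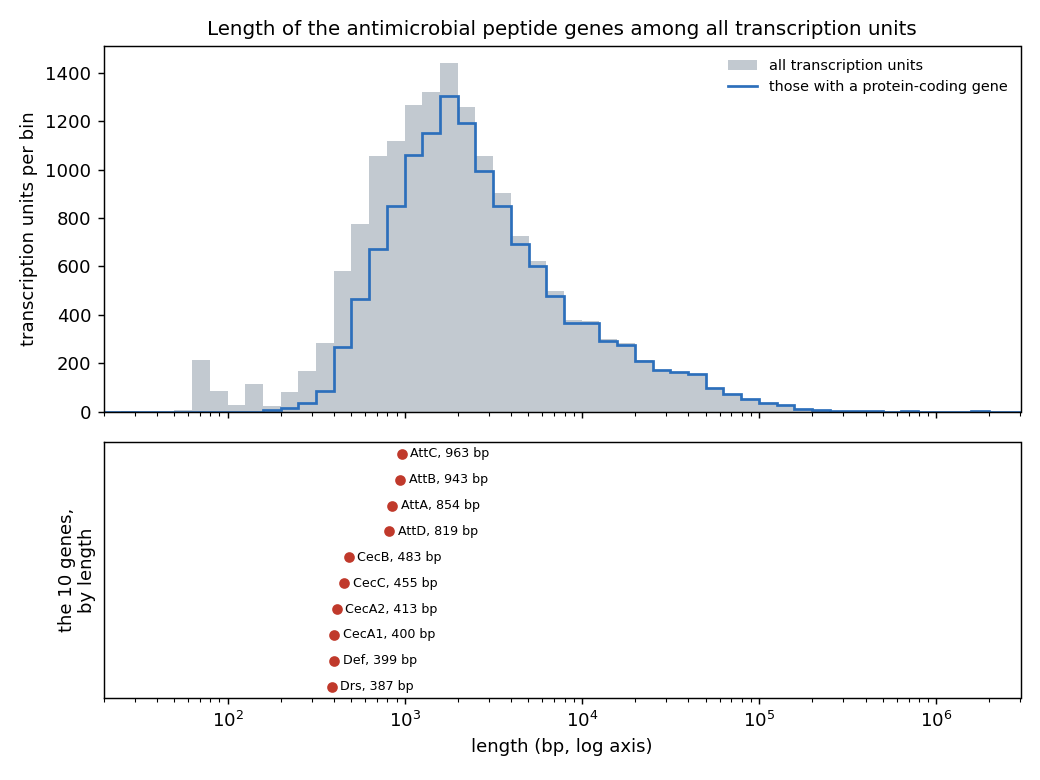
Upper panel: number of TUs per length bin (length in bp, log axis) for all 15991 TUs (grey) and for the 13045 with a protein-coding gene (blue line). Lower panel: the 10 antimicrobial peptide genes on the same axis, from Drs at 387 bp to AttC at 963 bp, all left of the medians of 1817 and 2240 bp.

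The annotation treated each of the 10 genes as a unit of its own. All 10 TUs held 1 gene, as did 92.8% of all TUs. A single annotated transcript was listed for 9 of 10, against 54.6% of all TUs, and AttB had 2. Every start and end equalled that of the RefSeq gene of the same symbol (10 of 10, where 99.2% of the 14820 single-gene TUs matched to RefSeq did so). The starts are therefore annotated starts and were not measured in these embryos.

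The cecropin locus lay near the end of 3R, at 94.2% of the distance to the last TU of the arm. CecA1 (FBgn0000276) spanned 30210874 to 30211273 on the plus strand, and CecA2 (FBgn0000277) spanned 30212156 to 30212568 on the plus strand. CecB (FBgn0000278) was transcribed the other way, from 30213797 to 30213315. CecC (FBgn0000279) was on the plus strand again, at 30216484 to 30216938.

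Pseudogenes lay between 3 of the 4 cecropin genes, and a further peptide gene lay beside them. Anp, which encodes andropin, a peptide of the male ejaculatory duct, lay 491 bp upstream of CecA1 on the same strand. Cec-Psi1, a pseudogene of 227 bp, lay between CecA1 and CecA2 at 253 bp from the former and 402 bp from the latter. Cec2, which RefSeq also classes as a pseudogene, measured 240 bp and lay 334 bp beyond CecA2. From Anp to Cec2, 5 consecutive TUs thus read in the same direction with gaps of at most 491 bp. Such runs, of at least 5 consecutive TUs on a strand with gaps of 0 to 500 bp, held 2.36% of all TUs in 50 runs, and of the 10 genes they held CecA1 and CecA2. This measure was chosen after the locus had been seen.

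The run ended at CecB. Cec2 and CecB faced each other tail to tail across 172 bp, the smallest gap at this locus. CecB and CecC stood head to head, but their starts were 2687 bp apart and no TU lay between them. Downstream of CecC the next TU, CG43448, came only after 20155 bp. From Anp to CecC, 7 TUs occupied 6991 bp, which is 1.00 TU per kb, where 3R as a whole had 0.119 per kb. The window was cut at the outer ends of these TUs, so a density above that of the arm was built in. The 4 cecropin genes made up 28.9% of the 6065 bp between the first base of CecA1 and the last of CecC, and all TUs there made up 36.6%. Upstream of Anp the nearest unit was that of RpS7, a small ribosomal subunit gene that hosts snoRNAs.

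The attacins were spread over 3 loci. AttA (FBgn0012042; 2R, 14747362 to 14748215) and AttB (FBgn0041581; 14749223 to 14750165) stood in tandem on the plus strand, 1007 bp apart, with their starts 1861 bp apart. Dro, the gene of the proline-rich peptide drosocin, preceded AttA by 647 bp on the same strand. The 3 genes from Dro to AttB covered 4205 bp, 0.713 TUs per kb against 0.128 over 2R. This window, too, was cut at the outer ends of its TUs, so the densities are not comparable.

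AttB ended directly beside a housekeeping gene. Rpn6, which encodes a subunit of the proteasome lid, was transcribed toward AttB and ended at 14750166, the base after the last base of AttB. The 2 TUs abutted tail to tail with 0 bp between them and did not overlap. AttA had no such neighbour: its nearest TUs were Dro at 647 bp and AttB at 1007 bp, both of them antimicrobial peptide genes on the same strand.

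AttC (FBgn0041579; 2R, 13393705 to 13394667, plus strand) lay between opposite-strand genes. CG43691 started 343 bp upstream and ran the other way. CG4744 approached from downstream, and the last 53 bp of both genes overlapped, which was 5.50% of AttC and 1.11% of CG4744. On its own strand AttC had no TU within 12343 bp, where the nearest was IMPPP, named BaraA2 in RefSeq, a gene of the Baramicin family of immune peptides.

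AttD (FBgn0038530; 3R, 17625268 to 17626086, plus strand) was the attacin away from 2R. It stood among tRNA genes, which RNA polymerase III transcribes: tRNA:Thr-AGT-1-6, a TU of 74 bp, lay head to head with AttD at 388 bp. CG14325 followed on the same strand after 1040 bp. Within 5 kb of the AttD start there were 6 other TU starts.

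Def (FBgn0010385; 2R, 10054178 to 10054576, minus strand) was the single gene of the set inside another TU. All 399 bp lay within magu, a gene of 11172 bp on the plus strand whose product is a secreted regulator of BMP signalling. Def occupied 3.57% of the magu TU, 1637 to 2035 bp downstream of the magu start, and was read against it. Inside an opposite-strand TU in this way were 11.1% of all TUs. The magu TU held 3 units on the minus strand, Def and the non-coding CR44298 and CR44297. CR44298 followed Def on its own strand after 784 bp, and upstream the next TU on that strand, PIG-N, a gene of GPI anchor synthesis, was 8808 bp away. The labels list coverage summed over both strands among the study's file types. In such a sum the interval of Def would also hold the signal of magu.

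Drs (FBgn0283461; 3L, 3369556 to 3369942, plus strand) stood between kst and YT521-B and overlapped neither. kst, the gene of the heavy beta spectrin, is 31274 bp long and ended 1422 bp upstream on the same strand. YT521-B, whose product reads methylated adenosines in RNA, ended 508 bp downstream on the opposite strand. The nearest relatives of Drs were outside the 10 kb spacing: Drsl6 was 33137 bp away and Drsl1 33767 bp away, on the far side of kst and on the minus strand.

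Upstream of the 10 genes, where promoters lie, the gap to the next non-overlapping TU ranged from 343 bp for AttC to 8808 bp for Def, with a median of 827 bp against 614 bp over all TUs. Downstream it ranged from 0 bp for AttB to 20155 bp for CecC, with a median of 646 bp against 921 bp. Overlapping TUs were passed over on both sides. The 8808 bp upstream of Def lay wholly inside magu and were therefore not free of TUs, and CG4744 filled part of the sequence downstream of AttC. The upstream neighbour was on the same strand for 6 genes and head to head for 4 (AttC, AttD, CecB and CecC), against 50.1% and 49.9% of the 15980 TUs with an upstream neighbour. The downstream neighbour was on the same strand for 6 genes and tail to tail for 4 (AttB, CecB, CecC and Drs), against 59.2% and 40.8% of the 15984 TUs with a downstream neighbour. AttC counts among the 6 through IMPPP, since CG4744, which overlaps its end tail to tail, was passed over. Both splits lay near those of all TUs. CecB and CecC were each other's upstream neighbours, as AttA and AttB shared a gap, so the 10 genes are not independent of each other in these values.

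**Figure D3:**
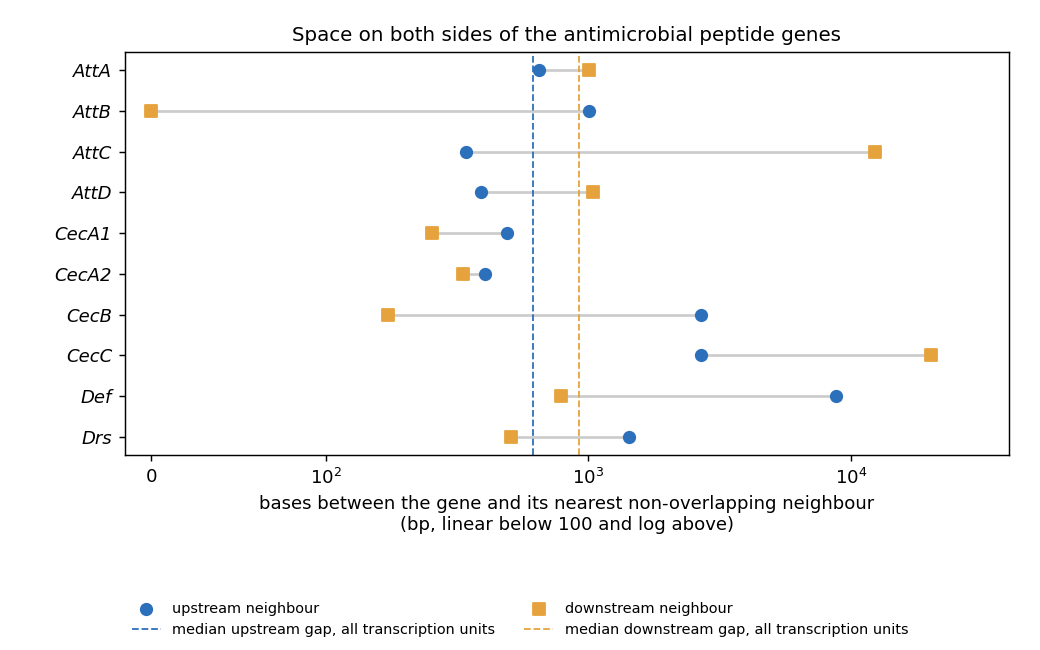
Bases between each of the 10 genes and its nearest non-overlapping TU upstream (blue circles) and downstream (orange squares), on an axis that is linear below 100 bp and logarithmic above. Dashed lines are the medians over all TUs, 614 bp upstream and 921 bp downstream. CecA1 and CecA2 lie left of both lines on both sides, and CecC lies right of them. The upstream gap of Def lies inside the overlapping magu.

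Counted over the set, 2 of 10 genes (AttC and Def) overlapped a TU of the opposite strand by at least 1 bp, where 39.1% of all TUs did. A divergent start, an opposite-strand start 0 to 500 bp upstream, was present for AttC and AttD, 2 of 10 against 24.3% of all TUs. The nearest of the other facing starts was 1853 bp upstream, for CecA1. Another TU on either strand lay less than 500 bp away for 7 of 10 genes, against 79.9% of all TUs, and the exceptions were AttA, CecC and Drs. On the same strand this held for CecA1 and CecA2, 2 of 10 against 36.1%. These are counts of 10 genes beside a census and carry no test.

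Other TU starts within 5 kb of the gene's own start numbered 7 for CecA2 and CecB, 6 for CecA1 and AttD, 5 for AttB and Def, 4 for CecC, 3 for AttA, 2 for Drs and 1 for AttC. The median was 5, where that over all TUs was 2 (interquartile range 1 to 3). The cecropin counts include neighbouring cecropin genes and the 2 pseudogenes, but CecA1 and CecC, at opposite ends of the group, were too far apart to count each other. Outside the groups, AttC and Drs were at or below the median of all TUs, while AttD and Def were above it.

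Similarity between neighbouring gene copies also bears on how reads can be assigned, though no sequences were compared here. CecA1 and CecA2, and likewise AttA and AttB, are known as very similar gene copies, and reads that fit both cannot be placed by sequence alone. How such reads were treated is not given in the sources used here, so values of either copy may be uncertain. The starts of CecA1 and CecA2 were 1282 bp apart, with Cec-Psi1 between them.

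Other gene lists placed the 10 genes beside related peptide genes and beside signalling and transcription factor genes. Of 20 names of other antimicrobial peptide genes, 18 were found, with a median TU of 442.5 bp and 14 under 1000 bp. The names AttE and CecA3 were in neither the annotation nor RefSeq and may not be gene names. The 18 include the 2 pseudogenes Cec-Psi1 and Cec2, and over the other 16 the median was 473 bp, with 12 under 1000 bp. They lay on 2R (9), 3L (6) and 3R (3), and 0 on the X. All 12 Bomanin genes, which encode short peptides induced through Toll, were found on 2R (10) and 3R (2), with a median of 450.5 bp. BomS1 measured 430 bp, BomS2 429 bp and BomS3 840 bp. The median of the 10 genes was 469 bp.

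Genes of the signalling pathways had longer TUs than the 10 genes by median, but not gene by gene. The shortest Toll TU measured 985 bp, and the shortest Imd TU, at 588 bp, was shorter than any attacin. Over all TUs with a protein-coding gene the median was 2240 bp, with 18.4% under 1000 bp and 15.5% on the X. The 23 Toll pathway genes had a median of 2435 bp, with 1 under 1000 bp and 4 on the X. Tl, the receptor gene, shared a TU of 43363 bp with a snoRNA gene, its ligand gene spz measured 5081 bp, and SPE, the gene of the protease that cleaves the ligand, shared 4091 bp with CG18754. The 23 Imd pathway genes had a median of 3461 bp, with 2 under 1000 bp and 4 on the X. imd, an adaptor gene, measured 3804 bp, and the receptor genes PGRP-LC and PGRP-LE measured 9527 and 2728 bp. Rel, the Relish gene, shared a TU of 8048 bp with Nmdmc and was named after its values were seen.

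An opposite-strand TU overlapped the TUs of 10 of 23 Toll genes and 8 of 23 Imd genes, beside 2 of the 10 peptide genes and 39.1% of all TUs. A divergent start was found for 2 of 23 Toll genes and 10 of 23 Imd genes, beside 2 of the 10 peptide genes and 24.3% of all TUs. Both measures were taken on the whole TU, also where a gene such as Rel shared it. The TU was shared with another gene for 3 Toll genes and 4 Imd genes, and for 0 of the 10 peptide genes, where 92.8% of all TUs held 1 gene. That share counts TUs and not genes, so the list counts cannot be set directly against it. The annotation had 14847 TUs of 1 gene and 17698 genes, so the share of genes that stood alone was lower than that of TUs. The list of blood cell and fat body transcription factor genes, which is not limited to immune genes, was the longest, with a median of 18459 bp over 8 genes. In it srp, the GATA factor gene of fat body and blood cells, had a TU of 17930 bp, pnr 15718 bp and grn 34077 bp. No test was made between the lists.

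**Figure D4:**
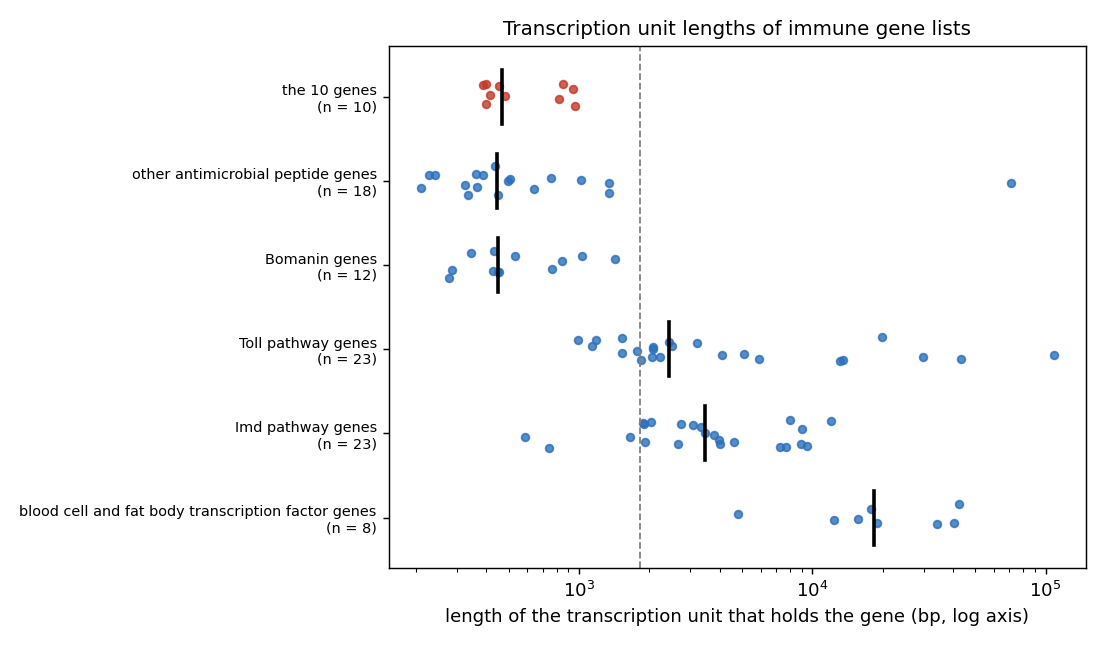
Length of the TU that holds each gene (bp, log axis) for the 10 antimicrobial peptide genes (red) and 5 other gene lists (blue), 1 point per gene with random vertical shifts. Black bars are list medians and the dashed line is the median of all TUs, 1817 bp. The median over TUs with a protein-coding gene, 2240 bp, is not drawn. The 10 genes, the other peptide genes and the Bomanin genes have medians of 469, 442.5 and 450.5 bp, left of the line, and the pathway and transcription factor lists have medians right of it.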

How the data were processed

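The deposited file used here is the annotation of the study, with 1-based start and end positions in bp, on build dm6 per the labels. Its format, per the file headers, is GFF 2 and its writer was rtracklayer 1.48.0. The tools named for the reads were STAR 2.7.4a, cutadapt 2.8, DESeq2, DESeq and SAMtools 1.20, with no role given, according to the submitters' processing notes. How genes were merged into TUs is not given in the sources used here. Sample coverage was not analysed here.

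Gaps are the bases between TUs, with 0 for overlapping or abutting TUs. Gaps to the upstream or downstream neighbour pass over overlapping TUs. Gene classes came from a RefSeq table of the same assembly, which matched 17625 of 17698 gene names by symbol or by an unambiguous synonym. List genes were found through their RefSeq symbol, or failing that through their name in the annotation or a RefSeq synonym. TUs are a census with no replicates, so values are given beside those of all TUs, without tests. The text names the 10 genes, overlapping TUs, the nearest TU on each side, other peptide genes within 10 kb and the first 3 genes of each other list. Drsl1, Drsl6, RpS7 and CR44297 were named after their values were seen. Members and lists were chosen with earlier results of these data known. Gap measures were tested on simulated TUs against plain loops. Python 3.11.15, numpy 2.4.6, pandas 2.3.3, scipy 1.17.1 and matplotlib 3.10.9 were used.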

Additional observations from a re-analysis of the deposited data

How the results depend on the processing

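Against 8.64% of all TUs, 2.43% of the TUs with a protein-coding gene and 9.29% of single-gene TUs were shorter than the median of the 10 genes. The RefSeq lengths gave the same 8.64%. The number of groups was 2 at each spacing tried. With an overlap of at least 50% of the shorter TU, 1 gene (Def) in place of 2 overlapped an opposite-strand TU, beside 21.6% of all TUs. Divergent starts within 250 bp numbered 0, beside 12.8% of all TUs, and within 1000 bp they numbered 2, beside 33.1%. Another TU lay within 250 bp of 4 genes (69.2% of all TUs), within 1000 bp of 9 (87.0%), and within 500 bp on the same strand of 2. CecA1 missed the 250 bp limit with a gap of 253 bp. These shifts follow from the changed limits themselves. The planned search for motifs in promoters and the comparison of protein sequences were not run, which left out 3 alternatives. No paired analysis was possible because no value per sample was analysed here. For the same reason the depth is unknown and limits none of the positions given.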

Other observations

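Some of the other immune peptide genes also lay near each other, and they are named here after their values were seen. Drsl2, Drsl3, Drsl4 and Drsl5, relatives of drosomycin, stood in tandem on the plus strand of 3L with gaps of 314, 264 and 838 bp, while Drsl1 and Drsl6 were 243 bp apart on the minus strand. DptA and DptB, the diptericin genes, were 1130 bp apart in tandem on 2R and measured 496 and 505 bp. Of the 12 Bomanin genes, 10 lay within 9237 bp of 2R (18381393 to 18390629) and 2 within 3128 bp of 3R (22085374 to 22088501). On 2R, BomS4 and BomBc2 overlapped tail to tail by 88 bp. Not all were clustered: Listericin, BaraB, BaraC and Mtk, also on 2R, had no other peptide gene of these lists within 10 kb.

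Mtk, which encodes the antifungal peptide metchnikowin, was the exception in length among the other peptide genes. Its TU of 70789 bp on 2R (15401096 to 15471884, plus strand) also held CG43729 and CR45020, so that signal summed over this unit would not belong to Mtk alone. The remaining 17 had TUs of 210 to 1348 bp.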
